A study of Mus musculus with 6 samples.

Results

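The genes of MHC class II antigen presentation were examined in RNA of splenic CD4+ T cells purified by flow cytometry from C57BL/6 mice. The 10 genes, chosen by name, were all found among the 22899 genes of the tables and encode the class II chains (H2-Aa, H2-Ab1, H2-Eb1), the peptide editor H2-DM (H2-DMa, H2-DMb1, H2-DMb2), its inhibitor H2-DO (H2-Oa, H2-Ob), the invariant chain (Cd74) and the transactivator of the whole set (Ciita). The obese group was 3 libraries of mice on a high-fat diet (60 kcal% fat), and the lean group was 3 libraries of mice on a normal diet. The labels place the start of the diets at 6 to 8 weeks of age and let them run for up to 4 months, and they name no transgene or deletion. The labels name neither the markers of the sort nor the animals behind each library. The p-values therefore rest on the variation among these libraries, which may be technical. Levels are FPKM (fragments per kilobase of transcript, scaled to the mapped fragments of the library), in which genes can be compared per length. Read counts were not used here, and the depth behind each value is unknown.

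Class II molecules are pairs of an alpha and a beta chain that carry peptides from the endosome to the cell surface, where the T cell receptor and CD4 of helper T cells read them. The invariant chain holds the peptide groove until proteases degrade it, H2-DM then exchanges the remaining fragment for antigenic peptide, and H2-DO, made mainly by B cells, restrains H2-DM. CIITA binds factors seated on class II promoters and sets how much of the set is made. In mice the set belongs to B cells, dendritic cells and macrophages, and mouse T cells make little of it. C57BL/6 mice lack a working H2-Ea gene, so that the H2-Eb1 chain has no partner and stays off the surface.

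Transcripts of both T cells and antigen-presenting cells were present in each library. Cd4 lay between 279 and 363 FPKM and Cd3e, of the T cell receptor complex, between 346 and 455 FPKM over the 6 libraries. The 13 B cell markers summed to between 608 and 1148 FPKM in obese and between 429 and 899 FPKM in lean libraries. The 17 monocyte and macrophage markers summed to between 1869 and 2070.0 FPKM in obese and between 789.9 and 875 FPKM in lean libraries. The 10 dendritic cell markers summed to between 33.9 and 48.3 FPKM in obese and between 33.7 and 37.9 FPKM in lean libraries. None of these markers was at 0 in any library. In such bulk RNA, fewer cells of a type and less RNA per cell cannot be told apart.

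Of the 10 genes, 8 lie within the class II region of chromosome 17, from H2-Oa (34092379 to 34095234) to H2-Eb1 (34305867 to 34316674, GRCm38). Ciita is on chromosome 16 (10480014 to 10531064). Promoters of the set are shown here for the letters they share, and whether these letters bear on the levels was not tested. RefSeq promoter sequences (GRCm38.p6, from 250 bases before to 50 after a start site) were matched for 7 of the 10 genes, and 6 of these 7 held the same pair of short motifs. Each stretch below runs 5′ to 3′ on the strand of its gene, with the motifs AAC and TGATTGG in capitals. TGATTGG holds the inverted CCAAT letters known as the Y box, which NF-Y binds, and the AAC lies where the X box of the RFX complex is known to sit.
H2-Aa, chr17:34287847-34287922, minus strand: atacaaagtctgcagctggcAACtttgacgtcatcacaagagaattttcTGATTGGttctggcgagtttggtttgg
H2-Eb1, chr17:34305758-34305832, plus strand: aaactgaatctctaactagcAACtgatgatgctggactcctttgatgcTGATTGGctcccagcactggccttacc
H2-DMb1, chr17:34153079-34153154, plus strand: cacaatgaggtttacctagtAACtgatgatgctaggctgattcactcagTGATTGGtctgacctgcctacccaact
H2-DMb2, chr17:34145108-34145183, plus strand: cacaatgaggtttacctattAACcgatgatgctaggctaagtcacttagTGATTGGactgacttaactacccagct
H2-Oa, chr17:34092285-34092360, plus strand: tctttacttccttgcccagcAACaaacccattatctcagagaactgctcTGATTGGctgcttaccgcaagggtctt
H2-Ob, chr17:34238800-34238872, plus strand: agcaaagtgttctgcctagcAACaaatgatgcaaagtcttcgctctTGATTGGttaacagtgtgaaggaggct

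The first base of AAC lay 26 bases before that of TGATTGG in H2-Ob, 28 in H2-Eb1 and 29 in the other 4 genes. This pair at a spacing of 26 to 29 bases, on either strand, was found in 151 of 32851 promoters of the same length, or 0.46%, and TGATTGG alone in 7.82%. The pair and its spacing were chosen after these sequences had been read, so their share is a description and no test. The promoter windows of H2-DMa held neither the pair nor TGATTGG. A window of this gene held ATTGG, the inverted CCAAT letters alone, and another did not. ATTGG was found in 37.4% of all promoters. H2-DMb1 and H2-DMb2 are neighbouring copies whose first protein-coding GENCODE transcripts are 94.2% identical over 1246 aligned bases, so reads can be shared between them and the value of each copy is uncertain.

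**Figure D1:**
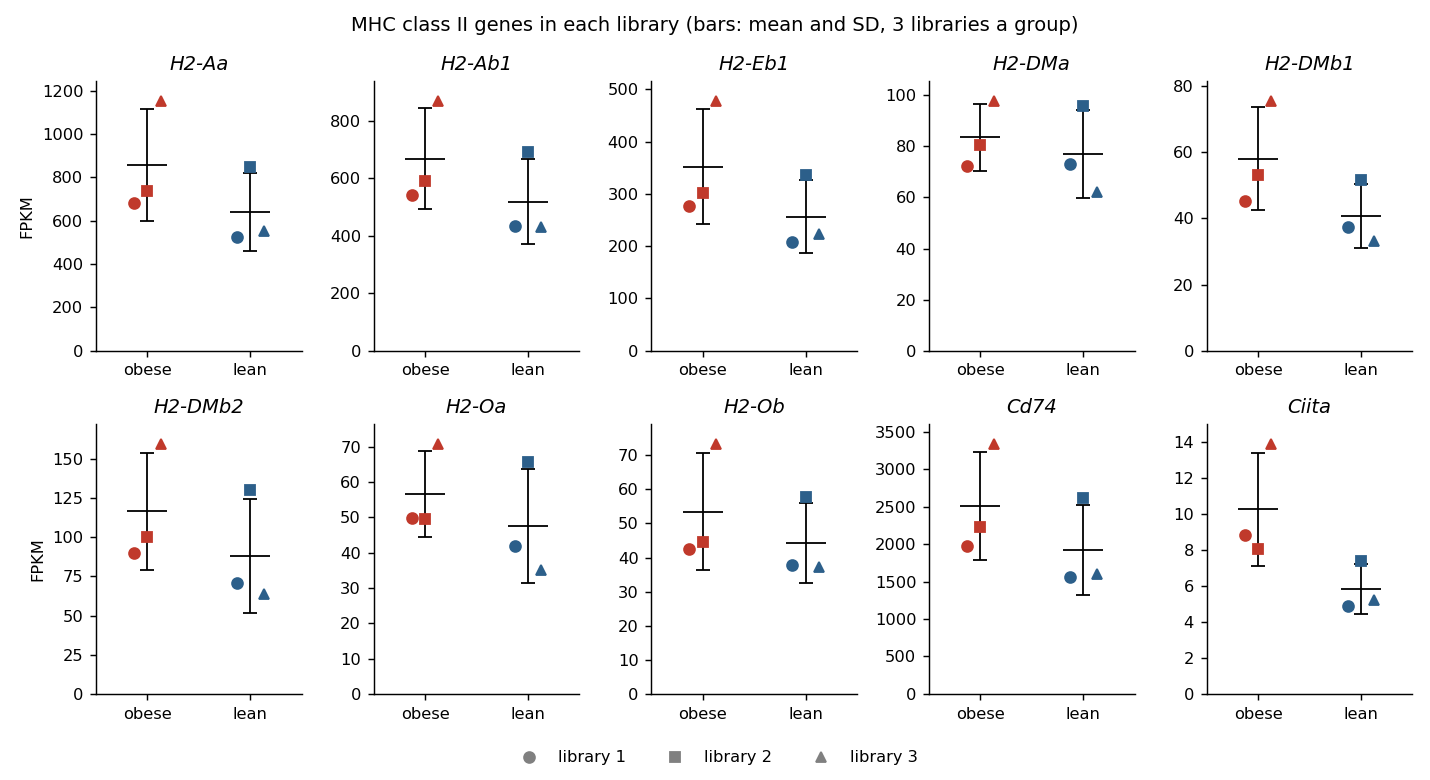
FPKM of the 10 class II genes in each library, with obese libraries in red and lean libraries in blue, the shape giving the library number and the bars the mean and SD of 3 libraries. Obese 3 is the highest point of every panel, lean 2 is the highest lean point, and only in the Ciita panel do the groups not overlap.

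The invariant chain and the classical chains were the most abundant of the set and followed the same pattern over the libraries. Cd74 stood at 1974, 2231 and 3335 FPKM in obese 1, 2 and 3, against 1559.6, 2621 and 1601 FPKM in lean 1, 2 and 3. Among all genes it ranked between 18 and 87 by FPKM in the 6 libraries. Obese 3 and lean 2 were the highest libraries, and the groups overlapped. H2-Aa, the alpha chain of the I-A molecule, stood at 683, 737 and 1152 FPKM in obese libraries, against 524, 848 and 551.5 FPKM in lean libraries. H2-Ab1, its beta partner, stood at 544, 591 and 869 FPKM in obese libraries, against 434.5, 690.5 and 431 FPKM in lean libraries. Lean 2 lay above obese 1 and obese 2 for either chain. H2-Eb1, the beta chain of I-E, stood at 277, 302 and 477 FPKM in obese libraries, against 208, 337 and 224 FPKM in lean libraries. The order Cd74, H2-Aa, H2-Ab1, H2-Eb1 held in each of the 6 libraries. H2-Ea-ps, the listed entry for the missing I-E alpha chain, was at 0, 0.07 and 0 FPKM in obese libraries and at 0.07 FPKM in each lean library.

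The peptide editor and its inhibitor were present at a lower level per length than the classical chains in each library. H2-DMa, the alpha chain of H2-DM, stood at 72.1, 80.7 and 97.8 FPKM in obese libraries, against 73.2, 95.7 and 62.1 FPKM in lean libraries, with the groups interleaved. H2-DMb1, a beta chain of H2-DM, stood at 45.3, 53.2 and 75.4 FPKM in obese libraries, against 37.3, 51.6 and 33.1 FPKM in lean libraries. H2-DMb2, the other beta chain, stood at 89.95, 100.1 and 159 FPKM in obese libraries, against 70.7, 129.99 and 63.7 FPKM in lean libraries. Both copies were highest in obese 3 and lowest in lean 3. H2-Oa and H2-Ob, the chains of H2-DO, averaged 56.7 ± 12.2 and 53.5 ± 17.2 FPKM in obese libraries and 47.5 ± 16.2 and 44.3 ± 11.6 FPKM in lean libraries (SD, n = 3 each). H2-DMb1, H2-Oa and H2-Ob changed places in the order from library to library. H2-DMb2 lay above H2-DMa in each library but lean 1. Differences in level between these neighbours were not tested.

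Ciita was the least abundant and the 1 member of the set with separate groups. It stood at 8.82, 8.09 and 13.9 FPKM in obese libraries, against 4.90, 7.41 and 5.21 FPKM in lean libraries. The lowest obese library, obese 2, lay just above the highest lean one, lean 2. Groups did not overlap for 31.5% of all tested genes, and 25.4% had each obese library above each lean one. Ciita is made from separate promoters in dendritic cells, B cells and cells exposed to interferon gamma, which a level per gene does not separate.

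Obese and lean libraries were then compared gene by gene. None of the 10 genes passed the test (limma on log2(FPKM + 1), BH-adjusted p under 0.05 over 10788 tested genes), against 6.28% of all tested genes. Each of the 10 had a higher mean in obese libraries, but H2-DMa had a log2 difference of −0.02 after median-of-ratios scaling. Differences on the log2(FPKM + 1) scale ran from 0.13 to 0.70, with a median of 0.40, where that of all tested genes was 0.10. After median-of-ratios scaling the medians were 0.25 and −0.03. At an unadjusted p under 0.05, 2 of the 10 passed, against 25.9% of all tested genes.

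The 2 were Ciita and H2-DMb1. Ciita averaged 10.3 ± 3.17 FPKM in obese and 5.84 ± 1.37 FPKM in lean libraries (SD, n = 3 each). Its difference, obese minus lean, was 0.70 (SE 0.21) in log2(FPKM + 1), with a BH-adjusted p of 0.0802 in limma. Its 95% interval was 0.24 to 1.17. Lean 2 and obese 3 had the highest B cell markers and the highest Ciita levels of their groups. Leaving out both, a step added after seeing the data, left 2 libraries a group, and Ciita then passed with limma (BH-adjusted p = 0.0385). Removing the top library of each group narrows the spread within groups, so no conclusion is drawn from this pass. Over all 17 alternatives the BH-adjusted p of Ciita in limma reached 0.223. H2-DMb1 averaged 58.0 ± 15.6 FPKM in obese and 40.7 ± 9.71 FPKM in lean libraries (SD, n = 3 each). In log2(FPKM + 1), obese minus lean was 0.49 (SE 0.20), with a BH-adjusted p of 0.170 in limma.

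For the classical genes the intervals of the difference held 0. Cd74 averaged 2513 ± 723 FPKM in obese and 1927 ± 601 FPKM in lean libraries (SD, n = 3 each). Its difference, obese minus lean, was 0.39 (SE 0.24) in log2(FPKM + 1), with a BH-adjusted p of 0.333 in limma and a 95% interval of −0.16 to 0.94. H2-Aa, H2-Ab1 and H2-Eb1 had log2 differences of 0.41, 0.37 and 0.45. The BH-adjusted p of these 3 lay between 0.253 and 0.309 with limma. H2-Oa and H2-Ob had log2 differences of 0.28 and 0.25. H2-DMb2 had 0.43 and H2-DMa 0.13, the smallest of the set (limma, BH-adjusted p = 0.647). The upper bounds of the 95% intervals were 0.87 for H2-Ab1 and 0.49 for H2-DMa, so differences up to these sizes lay within what 3 libraries a group leave undecided.

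Obese 3 and lean 2 stood above the other libraries of their groups for each gene. Obese 3 was the highest library for 10 of the 10 genes and lean 2 the next for 8, the exceptions being H2-DMb1 and Ciita. The share of all tested genes that were highest in obese 3 was not computed. Outside the set, the B cell markers Cd79a and Ms4a1 were also highest in obese 3 and, among lean libraries, in lean 2. The same held for Itgax of dendritic cells, Mzb1 of plasma cells and the macrophage marker Lyz2, so the pattern was not particular to B cell markers. The macrophage markers C1qa and Csf1r were highest in obese 1, and Cd68 in obese 2. Batf3 and Clec9a of dendritic cells were also highest in obese 2. The lowest library was lean 1 or lean 3 for each gene. Without obese 3 the median log2 difference of the 10 genes was 0.17, without lean 2 it was 0.63, and no member passed in any of the 6 fits that left out a single library. It was 0.27 without lean 1 and 0.27 without lean 3, 0.55 without obese 1 and 0.48 without obese 2.

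**Figure D2:**
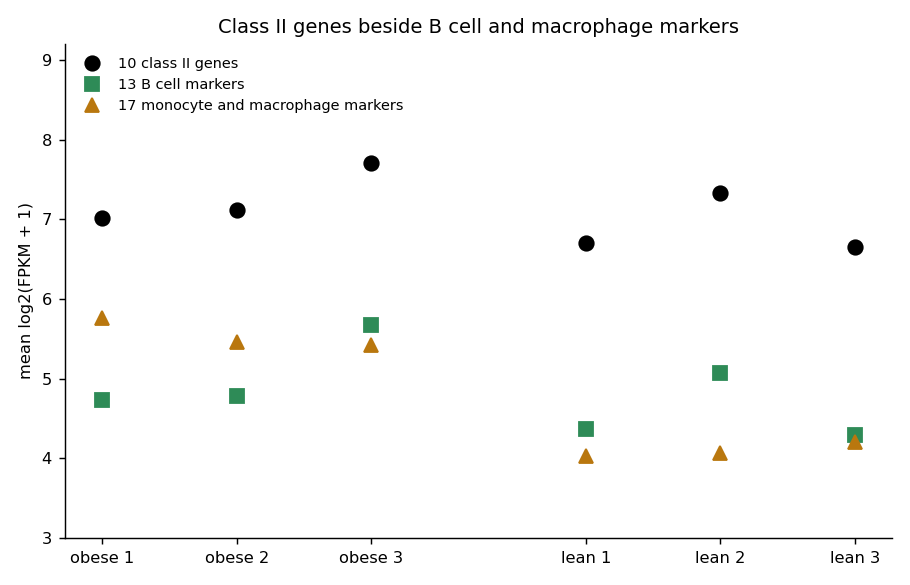
Mean log2(FPKM + 1) of the 10 class II genes, the 13 B cell markers and the 17 monocyte and macrophage markers in each library, obese libraries on the left. Class II genes and B cell markers are highest in obese 3 and, among lean libraries, in lean 2, while macrophage markers lie between 5.42 and 5.76 in obese and between 4.03 and 4.20 in lean libraries.

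B cell markers were highest in the same libraries. Their mean log2(FPKM + 1) was 4.73, 4.78 and 5.67 in obese libraries, against 4.37, 5.07 and 4.29 in lean libraries. The mean of the 10 class II genes was 7.02, 7.12 and 7.70 in obese libraries, against 6.70, 7.33 and 6.65 in lean libraries. None of the 13 B cell markers passed with limma, against 6.28% of all tested genes. At an unadjusted p under 0.05 in limma, 3 of the 13 passed, against 25.9% of all tested genes. Cd79a and Ms4a1, a signalling chain and a surface protein of B cells, had log2 differences of 0.38 and 0.71. Without obese 3 these were 0.11 and 0.33, and without lean 2 they were 0.76 and 0.90. Cd79a was also at 0.25 without lean 1 and at 0.12 without lean 3.

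Set against the B cell marker mean of the same library, most of the class II genes spread less. The difference between a member and that mean varied less over the 6 libraries than the member itself for 9 of the 10 genes. This count was not made over all tested genes, so it has no share to be set against. Cd74 lay 6.22, 6.34 and 6.03 log2 units above the B cell marker mean in obese libraries, against 6.24, 6.29 and 6.35 in lean libraries, a range of 0.32 where Cd74 itself ranged over 1.10. H2-Ab1 lay 4.36, 4.43 and 4.09 units above it in obese libraries, against 4.40, 4.36 and 4.46 in lean libraries. H2-DMa was the exception, at 1.46, 1.57 and 0.95 in obese and 1.84, 1.53 and 1.69 in lean libraries. On this relative scale the median of the 10 differences, obese minus lean, was −0.08, 8 members lay lower and 2, Ciita and H2-DMb1, higher in obese libraries. The groups did not overlap for H2-Ob alone, at 0.72, 0.73 and 0.54 in obese and 0.91, 0.81 and 0.97 in lean libraries. The share of all tested genes without overlap on this relative scale was not computed. With the B cell marker mean as a covariate none of the 10 passed with limma, Ciita had a log2 difference of 0.37 and Cd74 −0.01. The B cell markers' part in the class II levels was not tested beyond these values.

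Macrophage markers differed between the groups in another way, with each obese library above each lean one. All 17 passed with limma as higher in obese libraries, where 5.77% of all tested genes did. C1qa, a chain of complement C1q made by macrophages, had a log2 difference of 1.48, Csf1r, the receptor for their growth factor, 1.39 and Adgre1, the F4/80 antigen, 1.45. Their mean log2(FPKM + 1) was highest in obese 1, in which the mean of the class II genes was the lowest of the obese group. Ciita and H2-Oa were instead lowest in obese 2 within that group. Of the dendritic cell markers, 8 were tested and none passed with limma, against 6.28% of all tested genes. At an unadjusted p under 0.05 in limma, 2 of these 8 passed, against 25.9% of all tested genes. The 8 ran from −0.25 to 0.54 with a median of 0.18. Among them Itgax, Zbtb46 and Flt3 had log2 differences of 0.09, 0.27 and 0.35, and that of Itgax was −0.06 after median-of-ratios scaling and −0.03 after quantile normalization. The part of macrophages or dendritic cells in the class II levels was not tested.

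**Figure D3:**
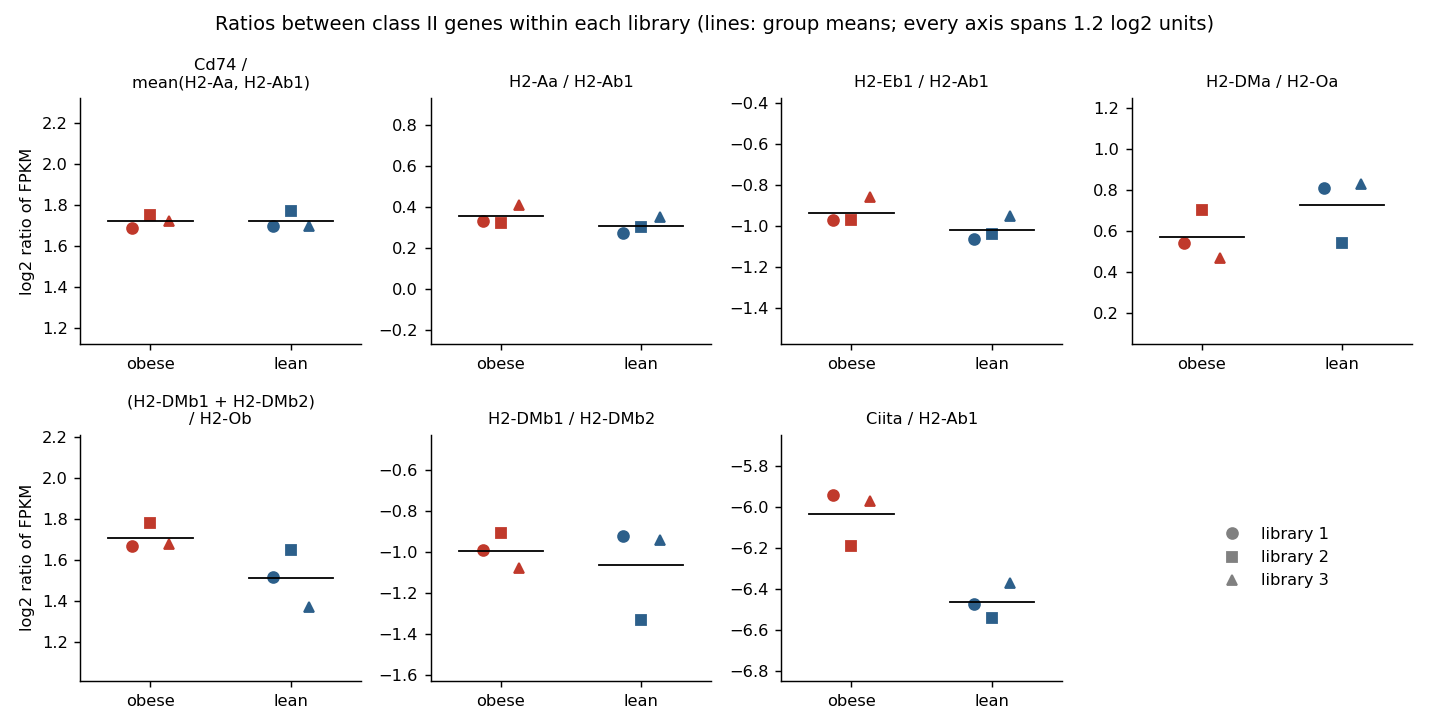
Log2 ratio of FPKM between class II genes within each library for the 7 ratios examined, obese libraries in red and lean libraries in blue, with group means as lines. The groups overlap in 5 panels and are separate for the beta chains of H2-DM to H2-Ob and for Ciita to H2-Ab1.

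Ratios between members of a library do not move with its scaling, and 7 of them were compared with an exact 2-sided permutation test, which cannot go below p = 0.1 with 3 libraries against 3. The balance of invariant chain to I-A was nearly constant. The log2 ratio of Cd74 to the mean of H2-Aa and H2-Ab1 was 1.69, 1.75 and 1.72 in obese libraries, against 1.70, 1.77 and 1.70 in lean libraries (exact permutation p = 0.90). The ratio of the I-A chains, H2-Aa to H2-Ab1, was 0.35 ± 0.05 in obese and 0.31 ± 0.04 in lean libraries (SD, n = 3 each, exact permutation p = 0.40). Cd74 made up 52.1% to 53.2% of the summed FPKM of the 10 genes in obese libraries and 52.1% to 53.4% in lean libraries. The sum itself was 3786, 4197 and 6324 FPKM in obese libraries, against 2992, 4904 and 3044 FPKM in lean libraries.

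Of the 7 ratios, 2 had groups that did not overlap. Ciita to H2-Ab1 was −5.94, −6.19 and −5.97 in obese libraries, against −6.47, −6.54 and −6.37 in lean libraries, a difference of 0.43 (exact permutation p = 0.10, the smallest possible, adjusted over the 7 ratios 0.35). The beta chains of H2-DM to H2-Ob stood at 1.67, 1.78 and 1.68 in obese libraries, against 1.52, 1.65 and 1.37 in lean libraries, a difference of 0.20 (exact permutation p = 0.10, adjusted 0.35). The alpha chains of the same complexes had a difference of the opposite sign, with H2-DMa to H2-Oa at 0.57 ± 0.12 in obese and 0.73 ± 0.16 in lean libraries (SD, n = 3 each, exact permutation p = 0.20), and these groups overlapped. H2-Eb1 to H2-Ab1 was −0.93 ± 0.06 in obese and −1.01 ± 0.06 in lean libraries, and H2-DMb1 to H2-DMb2 was −0.99 ± 0.08 in obese and −1.07 ± 0.23 in lean libraries (SD, n = 3 each), with exact permutation p of 0.30 and 0.80. No ratio passed after adjustment.

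**Figure D4:**
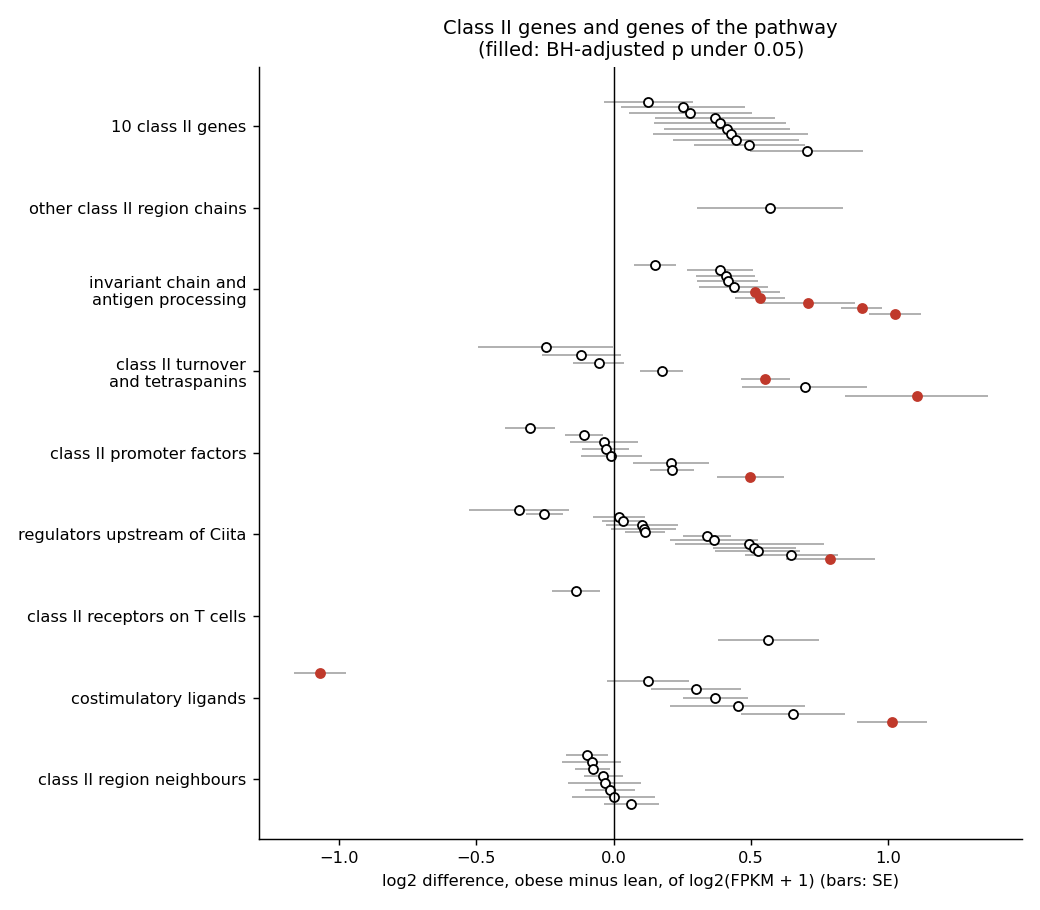
Difference in log2(FPKM + 1) between obese and lean libraries, with its SE, for the 10 class II genes and for the genes of each pathway list. Filled red points passed the test, which includes 5 genes of invariant chain and antigen processing and none of the 10 class II genes.

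Proteases that prepare antigen and degrade the invariant chain were among the genes that rose. Of 10 tested genes of invariant chain and antigen processing, 5 rose and none fell with limma, against 5.77% of all tested genes that rose. Their median log2 difference was 0.48, and the groups did not overlap for any of the 10, against 31.5% of all tested genes. Ctsb, the lysosomal protease cathepsin B, stood at 738, 666 and 682 FPKM in obese libraries, against 374, 378 and 361 FPKM in lean libraries. In log2(FPKM + 1), obese minus lean was 0.90 (SE 0.07), with a BH-adjusted p of 4.79e-04 in limma. Lgmn, the asparaginyl endopeptidase that starts invariant chain cleavage, stood at 77.8, 69.1 and 80.2 FPKM in obese libraries, against 33.2, 40.2 and 36.7 FPKM in lean libraries (log2 difference 1.02). For either gene lean 2 lay below each obese library.

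Ctss, the protease cathepsin S that trims the invariant chain last, averaged 254 ± 21.8 FPKM in obese and 177 ± 12.6 FPKM in lean libraries (SD, n = 3 each; log2 difference 0.52). Cst3, the protease inhibitor cystatin C, averaged 344 ± 26.9 FPKM in obese and 238 ± 21.7 FPKM in lean libraries (SD, n = 3 each; log2 difference 0.53). Ctsh, cathepsin H, named after its values were seen, averaged 66.1 ± 14.1 FPKM in obese and 40.0 ± 8.25 FPKM in lean libraries (SD, n = 3 each; log2 difference 0.71). Macrophages are rich in these proteases, and their markers summed to at least 1869 FPKM in obese and at most 875 FPKM in lean libraries. Their part in these rises was not tested. Ctsb, Lgmn and Ctss passed in each fit that left out a single library, Cst3 did not without lean 1 (limma, BH-adjusted p = 0.0616), and Ctsh failed in 5 of these 6 fits, up to a BH-adjusted p of 0.135, passing where lean 2 was left out. Ctss did not pass without both lean 2 and obese 3 (0.0557), and Cst3 did not after median-of-ratios scaling (0.0698).

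Of 7 tested genes of class II turnover and tetraspanins, 2 rose and none fell with limma, against 5.77% and 0.519% of all tested genes. Cd81, a tetraspanin of B cells and many other cells, averaged 86.6 ± 6.93 FPKM in obese and 58.7 ± 4.69 FPKM in lean libraries (SD, n = 3 each). Its difference, obese minus lean, was 0.55 (SE 0.09) in log2(FPKM + 1), with a BH-adjusted p of 0.00896 in limma. Marchf8, a membrane-bound ubiquitin ligase of the family that removes class II molecules from the surface, stood at 4.58, 2.20 and 6.21 FPKM in obese libraries, against 1.48, 1.14 and 1.45 FPKM in lean libraries, a log2 difference of 1.10. It passed (limma, BH-adjusted p = 0.0431), but of the single-library fits it passed only without obese 2 (BH-adjusted p up to 0.138 in the others).

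Factors that act on class II promoters and on Ciita mostly did not pass. In either list 1 gene rose and none fell, where 5.77% of all tested genes rose, so the counts are too small to set these lists apart. Of 8 promoter factors, 1 rose, Rfx5, a subunit of the RFX complex that binds the X box, with 8.98 ± 0.909 FPKM in obese and 6.09 ± 0.866 FPKM in lean libraries (SD, n = 3 each). It was higher in obese libraries by 0.50 in log2(FPKM + 1), with a BH-adjusted p of 0.0498 in limma. It passed in none of the 6 single-library fits (BH-adjusted p up to 0.146) and not after median-of-ratios scaling (0.0967). Of 14 regulators upstream of Ciita, 1 rose, Prdm1, which encodes the repressor of Ciita in plasma cells, with 4.58 ± 1.25 FPKM in obese and 2.18 ± 0.266 FPKM in lean libraries (SD, n = 3 each). It was higher in obese libraries by 0.79 in log2(FPKM + 1), with a BH-adjusted p of 0.0252 in limma. Prdm1 did not pass without lean 1 (0.0822) or without lean 2 (0.0964). The 7 plasma cell markers summed to between 857 and 1532 FPKM in obese and between 552 and 648 FPKM in lean libraries, and their part was not tested.

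Ligands of antigen-presenting cells for T cells, listed as costimulatory, had a median log2 difference of 0.37. Of 7 tested, 1 rose and 1 fell with limma, against 5.77% and 0.519% of all tested genes. Cd80, Cd40, Icosl, Cd274 and Pdcd1lg2 did not pass, with log2 differences from 0.12 to 0.65, and only Tnfsf9 lay lower in obese libraries. Cd86, the ligand of CD28 and CTLA-4, stood at 13.6, 12.0 and 13.98 FPKM in obese libraries, against 5.45, 5.44 and 7.34 FPKM in lean libraries. In log2(FPKM + 1), obese minus lean was 1.01 (SE 0.13), with a BH-adjusted p of 0.00264 in limma. Tnfsf9, the ligand of 4-1BB, stood at 3.83, 3.91 and 4.14 FPKM in obese libraries, against 8.88, 9.64 and 9.71 FPKM in lean libraries. Its difference, obese minus lean, was −1.07 (SE 0.10) in log2(FPKM + 1), with a BH-adjusted p of 5.54e-04 in limma. Both passed in each of the 6 single-library fits. Lag3 and Cd4, the class II receptors of T cells, differed by 0.56 and −0.14 on the log2 scale, with BH-adjusted p of 0.104 and 0.342 in limma. H2-Eb2, a further beta chain gene, stood at 5.51, 5.35 and 11.1 FPKM in obese libraries, against 3.51, 6.10 and 3.79 FPKM in lean libraries, again highest in obese 3 and in lean 2 (log2 difference 0.57; limma, BH-adjusted p = 0.215).

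**Figure D5:**
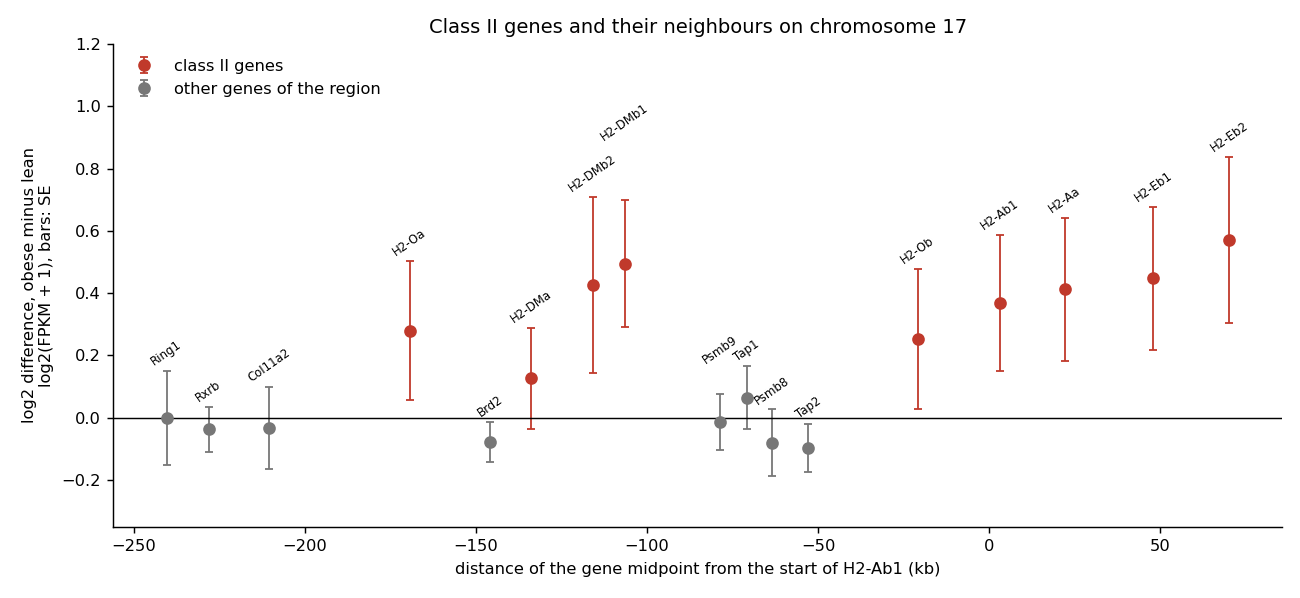
Log2 difference, obese minus lean, with its SE for class II genes and other genes of the class II region on chromosome 17, placed by the distance of the gene midpoint from the start of H2-Ab1. The class II members lie between 0.13 and 0.49, H2-Eb2 at 0.57 and the 8 other genes between −0.10 and 0.06.

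Genes between and beside the class II genes were examined in the same fit. The class I processing genes Psmb8, Psmb9, Tap1 and Tap2 lie between the H2-DM genes and H2-Ob. Brd2 (34112019 to 34122814) lies on the H2-Oa side of H2-DMa (34119693 to 34139101) and overlaps its span. What this overlap does to the level of H2-DMa was not examined. None of the 8 tested neighbours passed with limma and none had an unadjusted p under 0.05, against 6.28% and 25.9% of all tested genes. The log2 differences of the neighbours ran from −0.10 to 0.06. Brd2, a chromatin reader expressed in most cells, averaged 138.5 ± 4.09 FPKM in obese and 146 ± 1.91 FPKM in lean libraries (SD, n = 3 each), a small difference of −0.08 on the log2 scale although its groups did not overlap. Tap2, a subunit of the peptide transporter for class I, stood at 115 ± 8.58 FPKM in obese and 123 ± 4.34 FPKM in lean libraries (SD, n = 3 each; log2 difference −0.10). After median-of-ratios scaling Tap2 was at −0.25 and Brd2 at −0.23, farther from 0 than H2-Ab1 (0.22), H2-Oa (0.13), H2-Ob (0.10) and H2-DMa (−0.02) under that scaling. The difference between the class II genes and their neighbours was not tested.

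The genes whose levels over the 6 libraries were most like the class II set included several of the B cell lineage. Likeness was the root mean square difference, in log2 units, between a gene's values centred on their mean and the mean centred values of the 10 genes, and 10516 named genes were ranked over 6 libraries, which are the same libraries for each gene, with the same groups and the same B cell marker levels. The nearest was Gga2, an adaptor that sorts cargo from the Golgi to endosomes, at 0.049, with 8.41, 8.39 and 12.7 FPKM in obese and 6.45, 10.03 and 6.06 FPKM in lean libraries. Plcg2 and Dok3, a phospholipase and an adaptor that act below the B cell receptor, followed at 0.065 and 0.066. Napsa, an aspartic protease, Haao, an enzyme of tryptophan breakdown, and Pkig, an inhibitor of protein kinase A, lay at 0.068, 0.070 and 0.073. Ell3, a transcription elongation factor, Fgd2, an activator of the GTPase Cdc42, Pou2af1, a transcriptional coactivator of B cells, and Fcrl5, an Fc receptor-like protein of B cells, lay at 0.076 to 0.085. None of these 10 is in the B cell marker list, but 6 of the 13 B cell markers and none of the 17 macrophage markers were among the 100 nearest genes. Within the set, H2-Ab1 was closest to the common pattern, at 0.019, and Ciita and H2-DMa were farthest, at 0.182 and 0.177.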

How the data were processed

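Each library had its own deposited table, in which the authors gave FPKM to 2 decimals beside gene numbers and symbols. Per the submitters' processing notes, the tools were Bowtie and RSEM (no versions) and the builds GRCm38 and mm10. The annotation used and any strand setting are not stated. Because FPKM divides by a library's mapped fragments, abundant transcripts lower all others. Low values showed no clear whole-read steps at GENCODE transcript lengths (score 0.190 to 0.375). Simulated whole reads scored 0.881 to 0.912, but they were built on the same lengths that the score used. With the annotation not stated, the low score cannot decide whether steps exist. Depth is therefore unknown, and precision comes from the spread between libraries.

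Groups follow the labels. A gene was tested if 3 or more of the 6 libraries reached 1 FPKM, which left 10788 genes. The test was limma 3.58.1 in R 4.3.3 on log2(FPKM + 1) (lmFit, eBayes with intensity trend), 2-sided, with group as the sole term. It was tried on simulated data with 200 changed genes (5 runs). It recovered 42.6% of log2 changes of 0.5, 86.4% of changes of 1 and 98.2% of changes of 2, with 5.07% of calls false. Many changes of 0.5 or less would thus be missed. BH-adjusted p is the Benjamini-Hochberg adjusted p-value over all tested genes. Ratios used a pseudocount of 0.01. Marchf1 and Marchf8, whose symbols had become dates, were matched by gene number through RefSeq (GRCm38.p6). Promoters are RefSeq's and transcripts GENCODE's.

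The members and lists were chosen with earlier results of these data known. Named genes were the members, up to 4 called genes per pathway list by smallest adjusted p (or, with none called, the 2 with the smallest p), 11 cell type markers (1 of them not reported here) and the 10 genes most like the set. The settings varied were the pseudocount, the filter, the scaling (median-of-ratios, quantile, TPM), the variance model, the replicate number as a block and the B cell marker mean as a covariate, and each library was left out in turn. Leaving out lean 2 and obese 3 together was added after seeing the data.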

Additional observations from a re-analysis of the deposited data

How the results depend on the processing

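No class II gene passed under any alternative other than leaving out lean 2 and obese 3 together, where 1 of the 10, Ciita, passed. Of 170 differences of the members under alternatives, 162 were positive and 7 negative. These are the same 10 genes refitted on the same libraries, so they are not independent and their count is no support for a rise. The share of positive differences over all tested genes was not computed. The negative ones were H2-DMa (−0.02) with median-of-ratios scaling, H2-DMa (−0.01) without lean 3, and, with the B cell marker covariate, H2-DMa (−0.12), H2-DMb2 (−0.06), H2-Oa (−0.08), H2-Ob (−0.14) and Cd74 (−0.01). H2-Ab1 was at −0.00 with that covariate, whose correlation with the group was 0.52. Other named genes that turned were Haao (−0.03), Ell3 (−0.11), Fgd2 (−0.04), Cd79a (−0.18) and Itgax (−0.08) with the covariate, and Itgax (−0.06, −0.03 and −0.02) with median-of-ratios scaling, quantile normalization and without obese 3. The cause was not tested. Of the pathway genes that rose, Ctsb, Lgmn, Cd81 and Cd86 passed under all 17 alternatives, Ctss under 15, Cst3 under 14, Prdm1 under 11, Marchf8 under 8, Ctsh under 6 and Rfx5 under 4. Over all genes, limma called 678 (622 higher, 56 lower), but 368 without a filter, 434 with quantile normalization (322 higher, 112 lower), 281 with the covariate, 280 without both lean 2 and obese 3, and 318 to 707 with single libraries left out. Median-of-ratios scaling called 606, of which 71.1% were higher, against 91.7% without it, and moved the median of all genes to −0.03, against 0.10. The replicate number as a block called 1015 genes and none of the 10 members. Deviations of same-numbered libraries from their group means correlated at 0.03, 0.06 and 0.19. Libraries with different numbers were not compared in this way, so a pairing by number was not tested. Leaving out single libraries gave log2 differences of −0.01 to 0.29 for H2-DMa and −0.02 to 0.21 for Itgax, ratio differences of −0.02 to 0.02 for Cd74 to I-A, −0.06 to 0.15 for H2-DMb1 to H2-DMb2 and 0.38 to 0.50 for Ciita to H2-Ab1, and a median relative to B cell markers of −0.15 to −0.01. Without counts, precision at low levels such as that of Ciita cannot be separated from depth.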
